A study of Mus musculus with 33 samples.

Results

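Mitochondrial biogenesis, the making of new mitochondria, was followed through the transcripts of 10 of its regulators in blood stem and progenitor cells of old mice. The genes were chosen by symbol for their function, with earlier results of these data known, and fall into 3 kinds. Ppargc1a, Ppargc1b and Pprc1 encode the coactivators of the PGC-1 family. Nrf1, Esrra and Gabpa encode DNA-binding transcription factors, and Tfam, Tfb2m, Polrmt and Polg encode proteins that act on mitochondrial DNA (mtDNA). All 10 symbols were found among the 55376 gene symbols counted in each library.

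Total RNA was sequenced from 3 populations sorted from bone marrow, hematopoietic stem cells (HSCs) and their progeny the common lymphoid progenitor (CLP) and the granulocyte-monocyte progenitor (GMP), and the comparisons ask whether nicotinamide riboside (NR), a precursor of NAD+, alters transcription in aged progenitors. All groups were wild-type C57BL/6 males 24 to 29 months old. O-WT mice had no supplement, O-NR mice had NR in their drinking water for 4 to 6 weeks, and O-NR-RC mice had NR followed by 2 months without it. Cohort 2 had 4 O-WT and 4 O-NR libraries of each cell type, and cohort 1 had HSC libraries alone (O-WT 2, O-NR 4, O-NR-RC 3), which makes 33 in all. HSCs were gated as LSK cells without CD34 and Flk2 and with CD150. The labels do not say whether a library held the cells of 1 mouse or of pooled mice, and young mice are not analysed here. The spread behind each p-value is therefore the spread between libraries, which may be partly technical. One label field calls the GMP libraries common myeloid progenitors, whereas their titles call them GMP, and the title was followed.

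As background, PGC-1 coactivators bind no DNA themselves. They are brought to promoters by factors such as NRF1, the GABP complex, of which Gabpa encodes the DNA-binding subunit, and the estrogen-related receptor ERRα, the product of Esrra, and raise the transcription of nuclear genes for the respiratory chain. Among the genes these factors reach are those of the mtDNA machinery. TFAM bends and packages mtDNA, TFB2M melts the promoter for the mitochondrial RNA polymerase POLRMT, and POLG is the catalytic subunit of the polymerase that copies mtDNA. PGC-1α, the product of Ppargc1a, is deacetylated by SIRT1, an enzyme that consumes NAD+, and its transcription is strongest in oxidative tissues such as brown fat, muscle and heart. HSCs are mostly quiescent and rely largely on glycolysis, while their dividing progeny use oxidative phosphorylation more.

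The DNA before some of these genes holds letters that match the binding motifs of others. RefSeq promoter sequences (GRCm38.p6) were held for 9 of the 10 genes, all but Ppargc1b, and the 250 bases before each RefSeq start were searched on both strands for GCGCATGC (core of the NRF1 motif), CCGGAAG (ETS motif, bound by GABP) and TCAAGGTCA (ERR motif). No letter string is part of another. The NRF1 core was found in 2 of the 9, Polrmt and Esrra, and in 2.26% of the 32851 promoters in the table. The ETS motif was found in 4 of the 9, Gabpa, Tfam, Polrmt and Polg, and in 6.91% of all promoters. The ERR motif was found in 0 of the 9 and in 0.387% of all. Polrmt is printed because it alone held a match to both NRF1 and GABP, Esrra because it held an NRF1 core, and Ppargc1a because its level differed most between cell types below and it held no match. Capitals mark the matches, each sequence reads 5′ to 3′ on the gene's strand, here the minus strand, and bases annotated as transcribed were left off.

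Polrmt, chr10:79746582-79746831: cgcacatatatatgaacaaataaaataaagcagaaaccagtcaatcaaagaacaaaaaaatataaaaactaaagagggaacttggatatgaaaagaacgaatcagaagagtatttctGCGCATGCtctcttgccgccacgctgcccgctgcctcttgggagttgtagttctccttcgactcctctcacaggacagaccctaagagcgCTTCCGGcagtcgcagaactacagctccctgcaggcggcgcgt

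Esrra, chr19:6921814-6922058: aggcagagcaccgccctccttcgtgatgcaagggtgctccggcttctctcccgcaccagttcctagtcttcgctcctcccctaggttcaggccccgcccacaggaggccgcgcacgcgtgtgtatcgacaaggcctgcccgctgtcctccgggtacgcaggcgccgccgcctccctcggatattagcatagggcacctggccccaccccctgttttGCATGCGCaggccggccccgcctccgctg

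Ppargc1a, chr5:51567727-51567975: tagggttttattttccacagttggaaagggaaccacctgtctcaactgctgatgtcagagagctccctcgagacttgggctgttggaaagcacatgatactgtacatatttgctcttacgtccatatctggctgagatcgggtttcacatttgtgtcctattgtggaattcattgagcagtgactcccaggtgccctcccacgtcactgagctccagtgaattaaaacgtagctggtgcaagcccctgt

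In Polrmt the ETS match begins at -43 and the NRF1 core at -133 relative to the RefSeq start, and in Esrra the NRF1 core begins at -34. All 3 matches lie before the starts that RefSeq and Gencode give. In Gabpa, Tfam and Polg, not printed, Gencode places the start further upstream and the ETS match lies inside the gene it annotates. These are matches of letters, and binding was not measured.

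Counts summed over genes came to 8897256 to 23816042 per library in cohort 1 and 4792380 to 18213674 in cohort 2. The sorted identities were visible in their markers. Slamf1, which encodes the CD150 used in the HSC gate and so is no independent check, averaged 72.1 to 72.8 CPM (the library's counts scaled to a common total, with TMM factors between libraries) in the HSC groups of cohort 2 and 4.35 to 7.91 CPM in CLPs and GMPs. Il7r, the interleukin-7 receptor used in the CLP gate and so no independent check either, averaged 242 to 262 CPM in CLPs. Mpo, the myeloperoxidase of GMPs, averaged 17184 to 18510 CPM in GMPs. In CLPs it averaged 264 CPM in O-WT and 363 CPM in O-NR, against 3.14 to 3.76 CPM in HSCs of cohort 2. Summed GMP markers, 6 genes, were 229 to 424 CPM in O-WT and 341 to 531 CPM in O-NR CLPs. The part of such transcripts in the CLP values below was not tested. Olfactory and vomeronasal receptor genes, 1971 genes that blood cells are not known to use, served as a measure of background reads. Their summed reads per summed kilobase ranged over 0.297 to 0.561 CPM per kb in HSCs, 0.382 to 0.827 in CLPs and 0.181 to 0.418 in GMPs of cohort 2. In cohort 1 they ranged over 1.104 to 1.95 CPM per kb. There, 4 of the 9 libraries (O-NR replicates 1 and 2, O-NR-RC replicates 2 and 3) stood apart with receptor sums of 11096 to 11686 CPM, against 6622 to 9374 CPM in the other 5. Results of cohort 1 are given with and without these 4 libraries. Markers of other cells were summed, 6 genes per list, in cohort 2. Red cell markers reached 14.5 CPM, stromal and fat cell markers 45.9 CPM, T and NK cell markers 145 CPM (in GMPs), and megakaryocyte markers, in part shared with HSCs, 376 to 709.6 CPM in HSCs, 27.3 to 54.7 CPM in CLPs and 49.1 to 163 CPM in GMPs. Plasma and B cell markers ranged over 47.8 to 737 CPM in O-WT HSCs, 14.2 to 122 CPM in O-NR HSCs, 335 to 847 CPM in CLPs and 42.5 to 131 CPM in GMPs, where the sums for the sorted cells' own markers were 954 to 1725 CPM (HSC markers in HSCs) and 1611 to 4468 CPM (CLP markers in CLPs). The part of these cells in the differences below was not tested.

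Divided by exon length, so that genes can be compared with each other, the regulators ranged widely in O-WT HSCs of cohort 2. Gabpa and Pprc1 were highest, at 11.8 ± 2.73 and 11.8 ± 2.20 CPM per kb (mean ± SD, n = 4). Tfam followed at 9.05 ± 3.00, then Tfb2m at 6.88 ± 1.53, Polrmt at 6.18 ± 1.27, Ppargc1b at 4.998 ± 0.841, Nrf1 at 4.09 ± 1.31 and Polg at 3.80 ± 0.728 CPM per kb. Esrra, at 2.68 ± 0.721, and Ppargc1a, at 1.35 ± 0.336 CPM per kb, were lowest. Of the 9 neighbouring pairs in this order, 2 were further apart than the larger SD of the pair, Polg above Esrra and Esrra above Ppargc1a. The other 7 neighbours did not differ beyond their spread. Ppargc1a was also the lowest of the 10 in CLPs and in GMPs, where 4 neighbouring pairs each were apart by this measure.

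**Figure D1:**
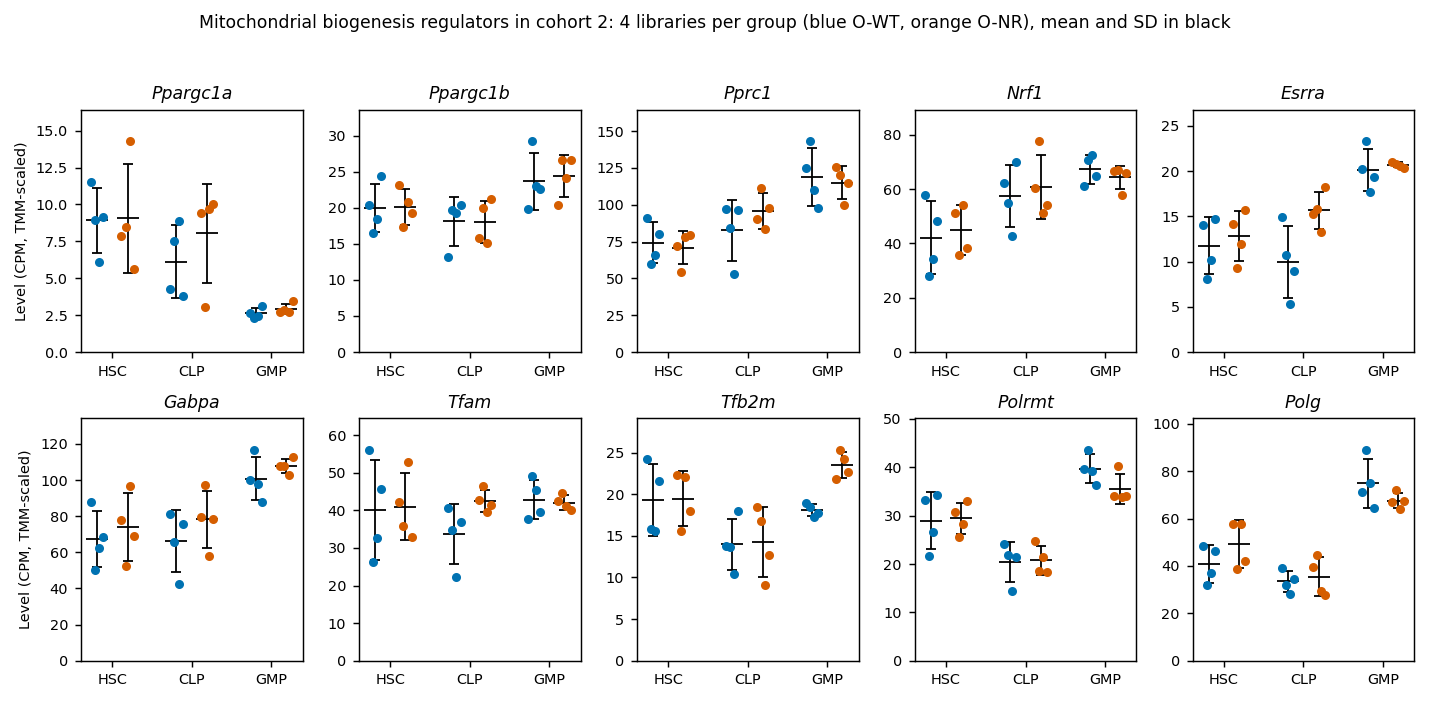
Level of each regulator in every library of cohort 2, in CPM on a linear axis from 0, for HSCs, CLPs and GMPs. Each point is 1 library (blue O-WT, orange O-NR, 4 of each per cell type), and black lines give the mean and SD. Ppargc1a was lowest in GMPs, at 2.30 to 3.45 CPM, whereas Polg in O-WT was highest there, at 64.4 to 88.9 CPM.

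The PGC-1 coactivators parted ways between cell types. Ppargc1a transcripts were lower in GMPs than in HSCs and CLPs of untreated old mice, Pprc1 transcripts were higher in GMPs, and Ppargc1b transcripts differed in no O-WT comparison. In O-WT libraries Ppargc1a (ENSMUSG00000029167.13, chromosome 5, 51454250 to 51567726, minus strand) stood at 11.5, 8.97, 6.09 and 9.12 CPM in HSCs, 4.26, 7.53, 8.85 and 3.78 CPM in CLPs and 2.61, 2.30, 2.46 and 3.14 CPM in GMPs. Every GMP library lay under every HSC and CLP library, while HSCs and CLPs overlapped. Its log2 fold change was -1.76 ± 0.332 (SE, adjusted p = 7.09e-05) in GMPs against HSCs and -1.28 ± 0.336 (SE, adjusted p = 0.00272) in GMPs against CLPs, in the quasi-likelihood test of edgeR, with p-values adjusted by Benjamini and Hochberg's method over all genes tested. That is 0.295 and 0.413 times the HSC and CLP levels. In these bulk samples, fewer cells with the transcript and less of it per cell cannot be told apart.

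Ppargc1a rests on few reads in these cells, 30 to 36 per GMP library and 57 to 165 per HSC library of cohort 2. Per kilobase, its reads in GMPs were 1.11 to 1.92 times those of the olfactory and vomeronasal receptor genes in the same library. The ratio was 1.22 to 3.03 in CLPs and 1.99 to 6.89 in HSCs of cohort 2. In O-WT alone it was 1.14 to 1.92 in GMPs and 1.26 to 2.05 in CLPs. There the CLP reads were nearly as close to the receptor genes as the GMP reads. The receptor reads themselves were 0.456 to 0.827 CPM per kb in O-WT CLPs and 0.181 to 0.418 in O-WT GMPs. For Ppargc1b the ratio was 13.6 to 40.4 in GMPs, far from the receptor genes. The part of such reads in the Ppargc1a difference was not tested.

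**Figure D2:**
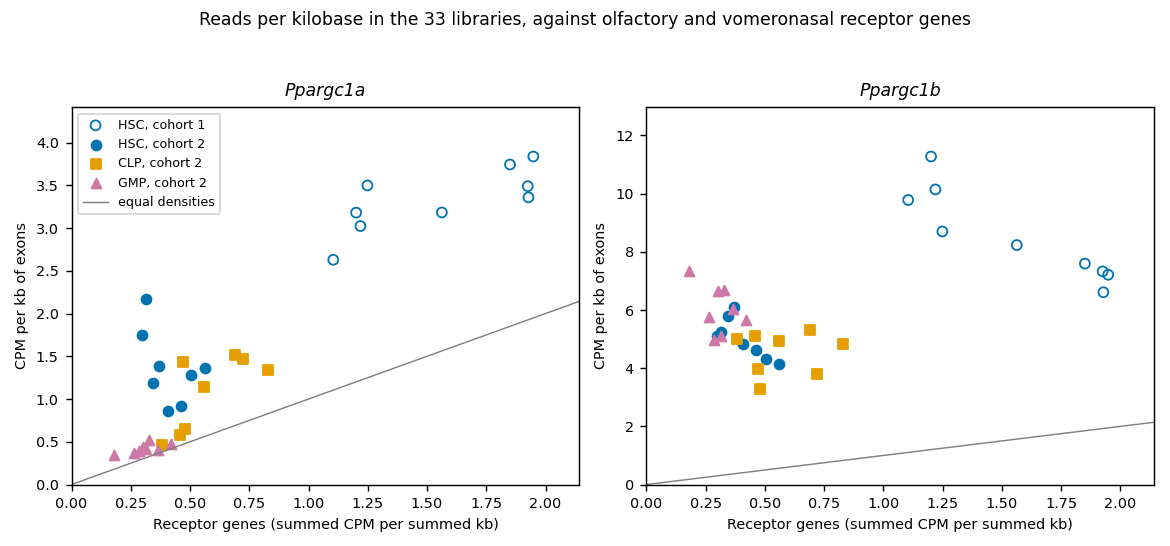
Reads per kilobase of Ppargc1a (left) and Ppargc1b (right) against those of the olfactory and vomeronasal receptor genes, both in CPM per kb, in all 33 libraries. Each point is 1 library, coloured by cell type and cohort, and the line marks equal densities. Ppargc1a in GMPs lies near the line, at 1.11 to 1.92 times the receptor genes, and Ppargc1b lies above it in every library.

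Within the family, on the per kilobase scale, Ppargc1a made up 7.46 ± 1.45% of the summed PGC-1 coactivator transcripts in O-WT HSCs, 5.28 ± 2.95% in CLPs and 1.62 ± 0.435% in GMPs (mean ± SD, n = 4). Pprc1 (ENSMUSG00000055491.14, chromosome 19, 46044886 to 46072915, plus strand), which encodes a PGC-1 relative induced when cells enter growth, stood at 90.7, 60.04, 65.9 and 79.9 CPM in HSCs, 97.2, 83.9, 52.9 and 96.8 CPM in CLPs and 125, 143, 110.1 and 97.6 CPM in GMPs in O-WT. The 4 GMP libraries were above all HSC and CLP libraries, the last by a narrow gap. The log2 fold changes were 0.68 ± 0.172 (SE, adjusted p = 0.0017) against HSCs and 0.51 ± 0.172 (SE, adjusted p = 0.014) against CLPs, while the value for CLPs and HSCs was 0.17 ± 0.172 (SE, adjusted p = 0.469). The call against CLPs was lost without CLP or GMP replicate 2 (0.47 to 0.48). Ppargc1b, the coactivator closest in sequence to Ppargc1a, kept between 13.1 and 29.2 CPM in all 12 O-WT libraries, with log2 fold changes of -0.10 to 0.35 and a smallest adjusted p of 0.103. It was called higher in GMPs than in CLPs without HSC or GMP replicate 1 (0.44 to 0.52), with RLE scaling, with either weaker filter and with DESeq2.

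All 3 transcription factors had higher transcripts in GMPs than in HSCs of untreated old mice. Nrf1, which encodes nuclear respiratory factor 1 (ENSMUSG00000058440.14, chromosome 6, 30047988 to 30153458, plus strand), stood at 57.7, 28.0, 34.2 and 48.1 CPM in HSCs, 62.3, 54.7, 42.9 and 69.9 CPM in CLPs and 61.1, 70.8, 72.6 and 64.7 CPM in GMPs. HSC libraries were the most spread and all lay under the GMP libraries. The log2 fold change was 0.69 ± 0.165 (SE, adjusted p = 0.00101) in GMPs against HSCs and 0.48 ± 0.165 (SE, adjusted p = 0.0261) in CLPs against HSCs. The value for GMPs and CLPs was 0.21 ± 0.164 (SE, adjusted p = 0.262), so Nrf1 passed the test in both progenitors against HSCs and not between them. The CLP call was lost with RLE scaling, with either weaker filter, with DESeq2 and with all 24 libraries in 1 fit. It was also lost in 10 of the 12 fits that left out 1 library, all but those without HSC replicate 1 and CLP replicate 3, with values of 0.35 to 0.51. Among these were the fits without a GMP library (0.45), which has no part in this difference. The filter on low counts asked for fewer libraries in these fits.

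Esrra (ENSMUSG00000024955.14, chromosome 19, 6910977 to 6921813, minus strand) stood at 14.1, 8.11, 10.2 and 14.7 CPM in HSCs, 14.9, 10.8, 5.36 and 8.91 CPM in CLPs and 20.3, 23.3, 17.7 and 19.3 CPM in GMPs in O-WT. Every GMP library was above every HSC and CLP library. Its log2 fold change was 0.78 ± 0.222 (SE, adjusted p = 0.00503) against HSCs and 1.00 ± 0.226 (SE, adjusted p = 0.000724) against CLPs, where the GMP level was 2.00 times that of CLPs. Gabpa (ENSMUSG00000008976.16, chromosome 16, 84834925 to 84863779, plus strand) stood at 87.6, 50.4, 62.4 and 68.3 CPM in HSCs, 81.1, 65.5, 42.5 and 75.6 CPM in CLPs and 100, 117, 97.8 and 88.1 CPM in GMPs. GMP libraries were again above all others. The log2 fold change of Gabpa was 0.59 ± 0.168 (SE, adjusted p = 0.00519) against HSCs and 0.59 ± 0.169 (SE, adjusted p = 0.00497) against CLPs, and CLPs and HSCs did not pass the test for either gene (-0.22 for Esrra, adjusted p = 0.488, and -0.0025 for Gabpa, adjusted p = 0.992). Without CLP replicate 2, Gabpa in GMPs against CLPs was not called (0.55), and with the filter at 1 CPM it was not called in GMPs against HSCs (0.64).

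Among the factors that act on mtDNA, transcripts of both polymerases passed the test between cell types in O-WT and those of Tfam and Tfb2m did not. Polg (ENSMUSG00000039176.17, chromosome 7, 79446231 to 79466362, minus strand) stood at 48.3, 31.8, 36.9 and 46.3 CPM in HSCs, 39.1, 32.1, 28.2 and 34.5 CPM in CLPs and 71.3, 88.9, 75.0 and 64.4 CPM in GMPs in O-WT libraries. The GMP libraries were above all HSC and CLP libraries by a wide gap. Its log2 fold change was 0.88 ± 0.151 (SE, adjusted p = 2.12e-05) against HSCs and 1.14 ± 0.153 (SE, adjusted p = 1.04e-06) against CLPs, which is 1.84 and 2.20 times their levels and had the smallest adjusted p of the 10 genes in both comparisons. Polrmt (ENSMUSG00000020329.12, chromosome 10, 79736123 to 79746581, minus strand) stood at 33.3, 21.7, 26.5 and 34.3 CPM in HSCs, 24.1, 21.8, 14.5 and 21.4 CPM in CLPs and 39.7, 43.6, 39.2 and 36.4 CPM in GMPs. GMPs were highest without overlap, and HSCs and CLPs overlapped. The log2 fold change of Polrmt was 0.94 ± 0.158 (SE, adjusted p = 2.69e-05) in GMPs against CLPs, 0.46 ± 0.155 (SE, adjusted p = 0.0179) in GMPs against HSCs and -0.48 ± 0.159 (SE, adjusted p = 0.0215) in CLPs against HSCs. The last 2 of these changed with the processing, since the GMP and HSC difference was lost with upper quartile scaling, with either weaker filter and with all 24 libraries, and the CLP and HSC difference was lost with both other scalings, without the CPM filter and with DESeq2. Both also changed in fits that left out 1 library, where the filter on low counts also asked for fewer libraries. The GMP and HSC call was lost without HSC, CLP or GMP replicate 2 (0.39 to 0.44), and the CLP and HSC call without HSC replicate 1 or 4 or CLP replicate 2 or 3 (-0.50 to -0.39).

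Tfam kept to means of 40.1 ± 13.3 CPM in HSCs, 33.6 ± 8.02 CPM in CLPs and 42.9 ± 5.27 CPM in GMPs (mean ± SD, n = 4 each) and passed the test in no comparison, with a smallest adjusted p of 0.0986. Without HSC replicate 1, CLP replicate 1 or GMP replicate 4 it was called higher in GMPs than in CLPs, at 0.42 to 0.48. Tfb2m had means of 19.3 ± 4.29 CPM in HSCs, 14.0 ± 3.08 CPM in CLPs and 18.1 ± 0.731 CPM in GMPs (mean ± SD, n = 4 each). The lowest value was that of CLPs, and the log2 fold change against HSCs of -0.44 ± 0.175 (SE, adjusted p = 0.0601) missed the threshold. The 95% interval of that difference was -0.79 to -0.077. Tfb2m in GMPs against CLPs, at 0.35 ± 0.174 (SE, adjusted p = 0.0801), was called with DESeq2 and without HSC replicate 1 or CLP replicate 4 (0.43 to 0.54), and Tfb2m in CLPs against HSCs was called without HSC replicate 2 or CLP replicate 4 (-0.58 to -0.49).

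Counted over the 10 regulators in O-WT, 6 were higher and 1 was lower in GMPs than in HSCs, where 22.6% of the 20044 genes tested were called higher and 21.5% lower. In GMPs against CLPs 5 were higher and 1 lower, with backgrounds of 28.6% and 32.2%. In CLPs against HSCs 1 was higher and 1 lower, with backgrounds of 10.4% and 19.9%. The median log2 fold change of the 10 was 0.52, 0.43 and -0.22 in these comparisons, and that of all genes tested was -0.31, -0.28 and 0.078. The scaling between libraries moves this centre. With upper quartile scaling 3727 genes were called higher and 6105 lower in GMPs against HSCs, in place of 4531 and 4319. In GMPs against CLPs the split was 3163 and 10281 in place of 5737 and 6447, and in CLPs against HSCs 3187 and 3039 in place of 2080 and 3986. Under it Gabpa and Pprc1 lost their calls in GMPs against CLPs, Nrf1 was called lower in GMPs than in CLPs (-0.25), and Pprc1 was called higher in CLPs than in HSCs (0.37). The median over all genes under it was -0.58, -0.74 and 0.28 in the order given above. Less the median of all genes in the same fit, Nrf1 in GMPs against CLPs was 0.48 to 0.49 with TMM, RLE and upper quartile scaling. On this measure every regulator kept its sign across these scalings, here and in O-NR.

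**Figure D3:**
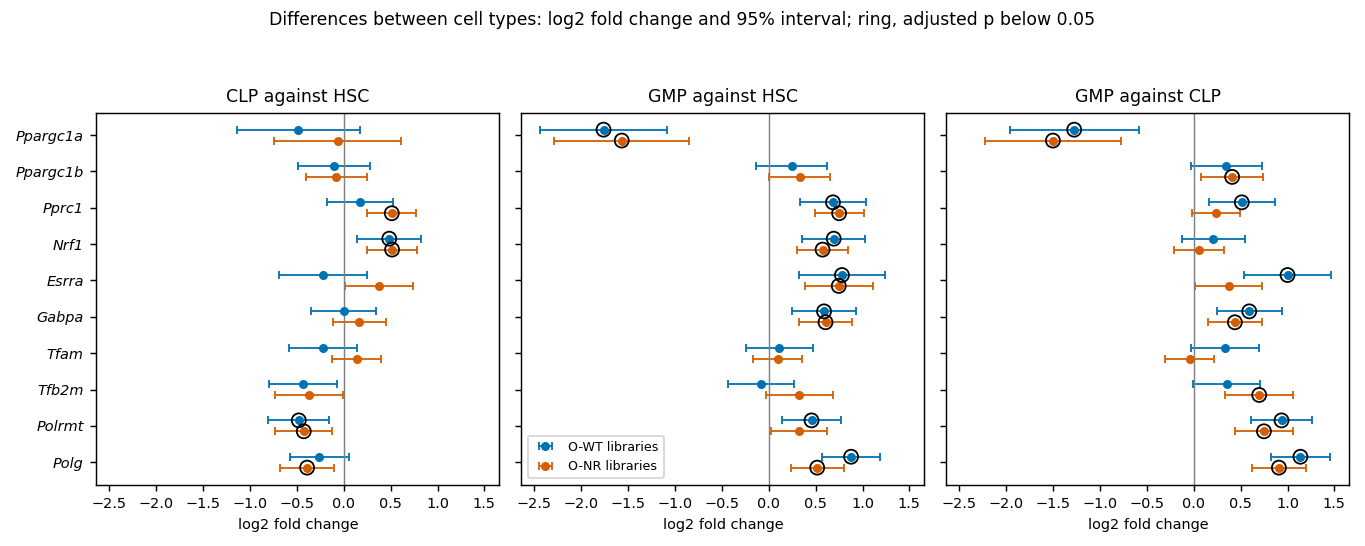
Differences between cell types for the 10 regulators, as log2 fold change with its 95% interval, in CLPs against HSCs, GMPs against HSCs and GMPs against CLPs. Blue points are the 12 O-WT libraries and orange points the 12 O-NR libraries of cohort 2, and a ring marks an adjusted p below 0.05. Ppargc1a lies at -1.76 and -1.57 in GMPs against HSCs, opposite in sign to Polg at 0.88 and 0.52.

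The O-NR libraries give the same comparisons in other libraries. Ppargc1a stood at 7.83, 8.47, 14.3 and 5.63 CPM in HSCs, 9.41, 3.06, 9.68 and 10.01 CPM in CLPs and 2.71, 2.87, 2.68 and 3.45 CPM in GMPs. GMPs were below HSCs without overlap, whereas CLP replicate 2 fell to the GMP range. The log2 fold changes were -1.57 ± 0.348 (SE, adjusted p = 0.00047) against HSCs and -1.50 ± 0.351 (SE, adjusted p = 0.00116) against CLPs. In GMPs against HSCs 5 regulators were higher, Pprc1 (0.75), Nrf1 (0.57), Esrra (0.75), Gabpa (0.60) and Polg (0.52), and 1, Ppargc1a, was lower, where 24.4% and 22% of 18080 genes were called.

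In GMPs against CLPs of O-NR 5 were higher, Ppargc1b (0.41), Gabpa (0.44), Tfb2m (0.70), Polrmt (0.75) and Polg (0.91), and Ppargc1a was lower, with backgrounds of 26.1% and 23.9%. In CLPs against HSCs Pprc1 (0.51) and Nrf1 (0.52) were higher, and Polrmt (-0.43) and Polg (-0.39) lower, with backgrounds of 18.3% and 22.6%. Esrra in GMPs against CLPs, which passed in O-WT, was 0.37 ± 0.174 (SE, adjusted p = 0.0775) in O-NR. Some of these calls changed in fits that left out 1 library, where the filter on low counts also asked for fewer libraries. Polrmt and Polg in CLPs against HSCs were lost in 5 and 7 of the 12 fits that left out 1 library, among them those without HSC replicate 1 or 4, CLP replicate 4 or GMP replicate 3, which lost both, and Ppargc1b in GMPs against CLPs in 5 (CLP replicate 1 or 3, GMP replicate 2, 3 or 4). Gabpa in GMPs against CLPs was lost without CLP replicate 3 (0.35), Esrra there was gained without CLP replicate 4 (0.48), and Polrmt in GMPs against HSCs was gained without HSC replicate 4 or any 1 CLP library (0.36 to 0.44). Tfam was called in none of the 6 comparisons over all libraries with TMM scaling. Other processing changed several O-NR calls. In CLPs against HSCs, Pprc1 and Nrf1 were lost with either weaker filter and with all 24 libraries in 1 fit, Polg with RLE scaling, DESeq2 and all 24 libraries, and Polrmt with upper quartile scaling (-0.31). There upper quartile scaling added Esrra (0.50) and Gabpa (0.29) as higher. In GMPs against HSCs, Polg was lost with all 24 libraries (0.46), and DESeq2 added Ppargc1b (0.39) and Polrmt (0.38). In GMPs against CLPs, Ppargc1b and Gabpa were lost with all 24 libraries, Esrra was added with either weaker filter and with DESeq2 (0.42), and Pprc1 with the filter at 1 CPM (0.45). Upper quartile scaling there ended the calls of Ppargc1b (0.087), Gabpa (0.12) and Tfb2m (0.38), and under it Nrf1 (-0.26) and Tfam (-0.37) were called lower in GMPs. A call in one treatment and not in the other does not show that they differ, and the differences between treatments were tested as interactions, given further on. Upper quartile scaling also tilted the O-NR splits, to 2849 higher and 7531 lower in GMPs against CLPs in place of 4724 and 4328, 3680 and 5295 in GMPs against HSCs in place of 4410 and 3986, and 4059 and 3532 in CLPs against HSCs in place of 3317 and 4082.

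The nuclear genes that these regulators serve were mostly higher in GMPs. The lists of pathway genes were chosen by function, with earlier results of these data known, so their counts are a description. The medians of all genes given above are the lists' background. In O-WT 22.6% of all genes were called higher and 21.5% lower in GMPs against HSCs, 28.6% and 32.2% in GMPs against CLPs and 10.4% and 19.9% in CLPs against HSCs. Of 36 nuclear-encoded respiratory targets, 34 were higher in GMPs than in HSCs of O-WT and 0 lower, with a median log2 fold change of 1.29, and 35 were higher and 0 lower in GMPs than in CLPs, with a median of 1.118. In CLPs against HSCs 3 were higher and 1 lower, with a median of 0.10. Cycs, cytochrome c, differed by 2.41 ± 0.199 (SE) in GMPs against HSCs, and Uqcrc1, a core subunit of complex III, by 1.70 ± 0.180 in GMPs against CLPs. Alas1, the first enzyme of heme synthesis, differed by 4.59 ± 0.218 against HSCs. In O-NR 34 and 0 were higher and lower in GMPs against HSCs, 33 and 0 in GMPs against CLPs and 17 and 3 in CLPs against HSCs (median 0.27), where the last background was 18.3% and 22.6%.

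Genes that work beside TFAM, POLRMT and POLG were also mostly higher in GMPs. Of 16 genes of mtDNA replication, nucleoid and repair, 12 were higher and 1 lower in GMPs than in HSCs (median 0.87), and 12 and 1 against CLPs (median 0.88). Shares over all genes in O-WT were 22.6% and 21.5%, and 28.6% and 32.2%, in these comparisons, and 10.4% and 19.9% in CLPs against HSCs. The nucleases Fen1 (2.92 ± 0.204) and Dna2 (1.98 ± 0.162), both of which also serve nuclear DNA replication, led against HSCs. The mitochondrial protease Lonp1 (1.67 ± 0.191) and the topoisomerase Top1mt (1.74 ± 0.216) led against CLPs. Of 18 genes of mtDNA transcription and RNA processing, 17 were tested, 9 were higher and 2 lower in GMPs than in HSCs (median 0.41), and 9 and 1 against CLPs (median 0.58). Lrpprc, which stabilises mitochondrial messenger RNAs, differed by 1.35 ± 0.167 and 1.16 ± 0.166. In CLPs against HSCs, 2 replication genes were higher and 3 lower, and of the transcription genes 0 were higher and 1 lower, Hsd17b10, a subunit of mitochondrial RNase P, at -1.67 ± 0.187. In O-NR the replication genes higher and lower numbered 11 and 2 in GMPs against HSCs, 10 and 1 in GMPs against CLPs and 3 and 2 in CLPs against HSCs, and the 16 transcription genes tested there 7 and 2, 7 and 1 and 1 and 2. The backgrounds in O-NR were 24.4% and 22%, 26.1% and 23.9%, and 18.3% and 22.6% in that order.

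Upstream of PGC-1 the direction depended on the comparison. Over all genes in O-WT, 22.6% were called higher and 21.5% lower in GMPs against HSCs, and 28.6% and 32.2% in GMPs against CLPs. In CLPs against HSCs these shares were 10.4% and 19.9%. Of 26 kinases, acetylation enzymes and corepressors, 9 (34.6%) were higher and 7 (26.9%) lower in GMPs than in HSCs (median 0.085). The numbers were 12 (46.2%) and 2 (7.69%) against CLPs, and 0 and 10 (38.5%) in CLPs against HSCs. Nrip1, a corepressor that opposes PGC-1α, differed by -1.88 ± 0.188 in GMPs and -1.58 ± 0.186 in CLPs against HSCs. Prkaa2, a catalytic subunit of the energy sensor AMPK, differed by -2.58 ± 0.317 in GMPs against HSCs. Of 22 partner transcription factors 21 were tested, 5 were higher and 8 lower in GMPs than in HSCs (median -0.47), 8 and 6 against CLPs, and 3 and 5 in CLPs against HSCs. Foxo1, which drives Ppargc1a in liver, differed by -2.11 ± 0.191 in GMPs against HSCs and -2.83 ± 0.194 against CLPs. Of the 13 mitochondrial messenger RNAs, 8 passed the filter. Of these 2 were higher and 1 lower in GMPs than in HSCs, mt-Nd1 at 1.03 ± 0.234 and mt-Nd6, the one on the other mtDNA strand, at -1.08 ± 0.187. In GMPs against CLPs 0 and 0 passed in each direction (median 0.21), and in CLPs against HSCs 2 and 1. Every gene of the lists named here had an adjusted p below 0.05 in edgeR's quasi-likelihood test. In O-NR the upstream genes higher and lower numbered 10 and 10 in GMPs against HSCs, 9 and 3 in GMPs against CLPs and 1 and 8 in CLPs against HSCs. Shares over all genes in O-NR were 24.4% and 22%, 26.1% and 23.9%, and 18.3% and 22.6% in these comparisons. The partner factors numbered 5 and 7, 6 and 9 and 8 and 5 in that order, and the mitochondrial messenger RNAs 2 and 1, 0 and 3 (median -0.32) and 5 and 1. For mitochondrial messenger RNAs in GMPs against CLPs the medians of O-WT and O-NR thus had opposite signs.

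NR was accompanied by a called difference in 1 of the 10 regulators, Tfb2m in GMPs. Genes were called here at an unadjusted p below 0.01, after the threshold of the study's heatmaps, and 0 genes had an adjusted p below 0.05 in HSCs, CLPs or GMPs of cohort 2 in the quasi-likelihood test of edgeR after the same adjustment. Where nothing differs, about 0.01 of genes would pass the unadjusted threshold, and the shares called over all genes were below that in each cell type. In HSCs 0.777% of 17364 genes were called, and 705 had an unadjusted p below 0.05. Of the 10, 0 were called, 0 had an unadjusted p below 0.05 and 0 were called with DESeq2. Their log2 fold changes lay between -0.14 (Pprc1) and 0.19 (Polg), against a median of -0.0069 over all genes. The widest 95% interval of the 10 was that of Ppargc1a, -0.61 to 0.49. It stood at 11.5, 8.97, 6.09 and 9.12 CPM in O-WT and 7.83, 8.47, 14.3 and 5.63 CPM in O-NR HSCs, and the groups overlapped. Summed plasma and B cell markers ranged over 47.8 to 737 CPM in O-WT and 14.2 to 122 CPM in O-NR HSCs, and their part in these values was not tested.

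In GMPs 1 of the 9 regulators tested was called, where 0.986% of 13486 genes were. Tfb2m, the mitochondrial transcription initiation factor (ENSMUSG00000026492.11, chromosome 1, 179528055 to 179546267, minus strand), stood at 19.0, 18.5, 17.3 and 17.8 CPM in O-WT and 21.8, 25.3, 24.2 and 22.6 CPM in O-NR. The O-NR libraries were all above the O-WT libraries. Its log2 fold change was 0.37 ± 0.100 (SE, adjusted p = 0.905), or 1.29 times the O-WT level, with a 95% interval of 0.15 to 0.58. The adjustment over all genes thus did not keep it, and the call was lost without O-NR replicate 2 or 3, without the CPM filter and with all 24 libraries in 1 fit, where the values lay between 0.33 and 0.37. Its partners Tfam and Polrmt were at -0.032 and -0.16. Ppargc1a did not pass the filter on low counts in this fit, with 2.61, 2.30, 2.46 and 3.14 CPM in O-WT and 2.71, 2.87, 2.68 and 3.45 CPM in O-NR.

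In CLPs 0 of the 10 were called (0 also at 0.01 with DESeq2), where 0.412% of 19909 genes were. In the quasi-likelihood test 1 had an unadjusted p below 0.05, as did 640 of the 19909 genes. The largest difference was that of Esrra, at 14.9, 10.8, 5.36 and 8.91 CPM in O-WT and 15.2, 15.8, 13.3 and 18.3 CPM in O-NR. O-NR libraries were higher except that O-WT replicate 1 lay among them. The log2 fold change was 0.58 ± 0.264 (SE, adjusted p = 0.9997) with a 95% interval of 0.046 to 1.119. Leaving out 1 library at a time, the Esrra value ranged over 0.42 to 0.83. It was called without O-WT replicate 1, at 0.83, and with all 24 libraries in 1 fit, at 0.65. The lowest O-WT value, 5.36 CPM, came from replicate 3. That library had the fewest counts (4792380) and the most receptor reads (0.827 CPM per kb) of cohort 2, and their part in the difference was not tested. The other 9 lay between -0.10 (Ppargc1b) and 0.30 (Ppargc1a), which has an interval of -0.49 to 1.095. Summed markers of mature neutrophils ranged over 39.4 to 167 CPM in O-WT and 10.1 to 130.2 CPM in O-NR CLPs, and were not tested as a part of the Esrra difference.

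**Figure D4:**
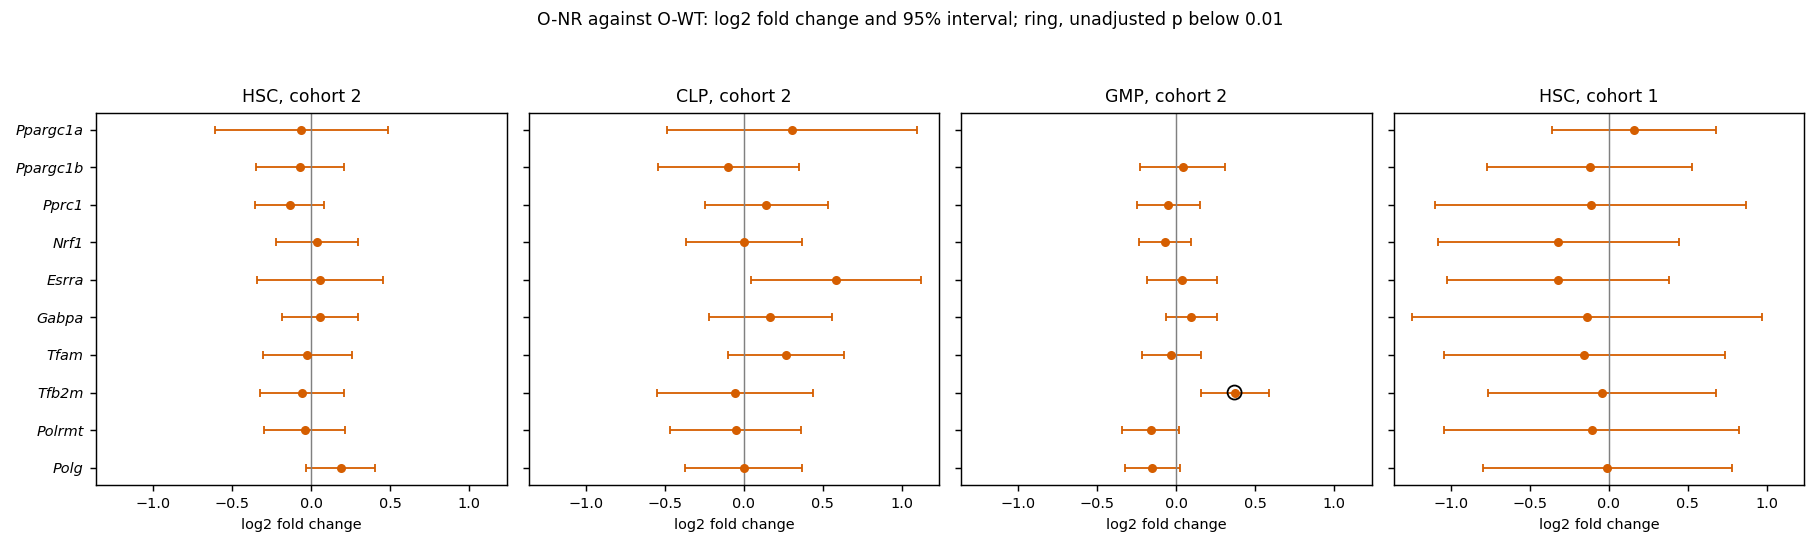
O-NR against O-WT for the 10 regulators, as log2 fold change with its 95% interval, in HSCs, CLPs and GMPs of cohort 2 (4 against 4 libraries) and HSCs of cohort 1 (4 against 2). A ring marks an unadjusted p below 0.01. Tfb2m in GMPs, at 0.37, is the ringed point, Ppargc1a has no point in GMPs, and the intervals of all regulators but Ppargc1a are wider in cohort 1 than in the other panels.

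Whether NR acted differently on a regulator in different cell types was tested as an interaction over the 24 libraries. Of the 10, 0 were called in each of the 3 contrasts, also 0 at an unadjusted p below 0.05 and 0 with DESeq2. The backgrounds were 0.403% of 22573 genes for CLPs minus HSCs, 0.146% for GMPs minus HSCs and 0.403% for GMPs minus CLPs. At an unadjusted p below 0.05 they were 519, 318 and 655 genes in that order. The interaction of Esrra was -0.61 ± 0.321 (SE, adjusted p = 0.992) for GMPs minus CLPs, with a 95% interval of -1.25 to 0.032, and it was called without CLP O-WT replicate 1, at -0.89. Leaving out 1 library at a time, this interaction ranged over -0.89 to -0.41. That of Tfb2m was 0.36 ± 0.294 (SE, adjusted p = 1) for GMPs minus HSCs, with an interval of -0.23 to 0.95. Both intervals over all libraries include 0.

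Among the pathway lists, NR gave 4 calls in the 3 cell types at the unadjusted threshold, 0 of 123 genes tested in HSCs, 2 of 125 (1.60%) in CLPs and 2 of 117 (1.71%) in GMPs. Over all genes the shares were 0.777%, 0.412% and 0.986%, and with so few calls only their values are given. In CLPs Prkag1, a regulatory subunit of AMPK, differed by 0.62 ± 0.205 (adjusted p = 0.9997) and mt-Nd3, a complex I subunit encoded on mtDNA, by 0.75 ± 0.244 (adjusted p = 0.9997). In GMPs Exog, a mitochondrial nuclease, differed by -0.38 ± 0.0879 (adjusted p = 0.674) and Myc, which raises transcription of mitochondrial genes, by -0.26 ± 0.0820 (adjusted p = 0.905). In edgeR's quasi-likelihood test 0 of the 36 respiratory targets were called in any cell type. Their median difference (log2) was 0.035 for GMPs, 0.22 for CLPs and 0.10 for HSCs. The mitochondrial messenger RNAs tested had medians of 0.04 (8 tested), 0.52 (8) and 0.29 (8) in the same order, and in CLPs the summed level of all 13 was 5277 to 11610 CPM in O-WT and 10270 to 14390 CPM in O-NR.

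In the HSCs of cohort 1 neither NR nor its removal was accompanied by a called difference in any of the 10. For O-NR against O-WT 0 were called where 0.048% of 33350 genes were, for O-NR-RC against O-NR 0 where 0.036% were, and for O-NR-RC against O-WT 0 where 0.078% were. Where nothing differs, about 0.01 of genes would pass an unadjusted p of 0.01. The fit called far fewer, so it could hardly call any gene and the counts of 0 say little. The count was 0 in all 3 also at an unadjusted p below 0.05 and with DESeq2. Over all 33350 genes, 182, 97 and 265 had an unadjusted p below 0.05 in that order. Ppargc1a stood at 19.9 and 21.0 CPM in O-WT, 25.3, 22.1, 23.1 and 21.0 CPM in O-NR and 17.3, 23.0 and 24.7 CPM in O-NR-RC. The 3 groups overlapped. Its log2 fold changes were 0.16 ± 0.240 (SE, adjusted p = 0.9999) for O-NR against O-WT, -0.078 ± 0.211 (SE, adjusted p = 1) for O-NR-RC against O-NR and 0.082 ± 0.252 (SE, adjusted p = 0.9999) for O-NR-RC against O-WT. The standard errors of the other 9 were 0.301 to 0.512 for O-NR against O-WT, against 0.103 to 0.188 in HSCs of cohort 2.

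The levels in cohort 1 moved with the receptor reads. In the 4 libraries with the highest receptor sums, 9 of the 10 regulators were lower than in all of the other 5, without overlap, where 28% of the 33350 genes were lower without overlap and 25% higher. Gabpa, shown as an example chosen after its values were seen, stood at 65.6 and 56.5 CPM in O-WT, 37.1, 35.7, 67.7 and 81.6 CPM in O-NR and 100.4, 30.5 and 32.9 CPM in O-NR-RC. It ranged over 30.5 to 37.1 CPM in the 4 libraries and 56.5 to 100.4 CPM in the other 5. Polg ranged over 39.2 to 43.2 and 50.1 to 73.1 CPM. Ppargc1a was the exception, at 22.1 to 25.3 CPM in the 4 and 17.3 to 23.1 CPM in the 5, which overlap. O-NR and O-NR-RC each held 2 of the 4 libraries and O-WT held none. Whether what sets these libraries apart also sets the levels was not tested.

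Without the 4 libraries, a choice made after the data were seen, 2 libraries each of O-WT and O-NR and 1 of O-NR-RC remained, and the single O-NR-RC library is assumed to vary like the rest. For O-NR against O-WT and for O-NR-RC against O-NR 0 of the 10 were then called, while 491 and 988 of 25597 genes tested were (1.92% and 3.86%). For O-NR-RC against O-WT 1 was called, Gabpa at 0.58 ± 0.169 (SE, adjusted p = 0.0739), among 2709 of 25597 genes (10.6%). Over all 9 libraries Gabpa was at -0.16, of the opposite sign. Ppargc1a was then at -0.38 for O-NR-RC against O-WT, the opposite sign to the value over all 9 libraries, and at 0.066 for O-NR against O-WT.

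**Figure D5:**
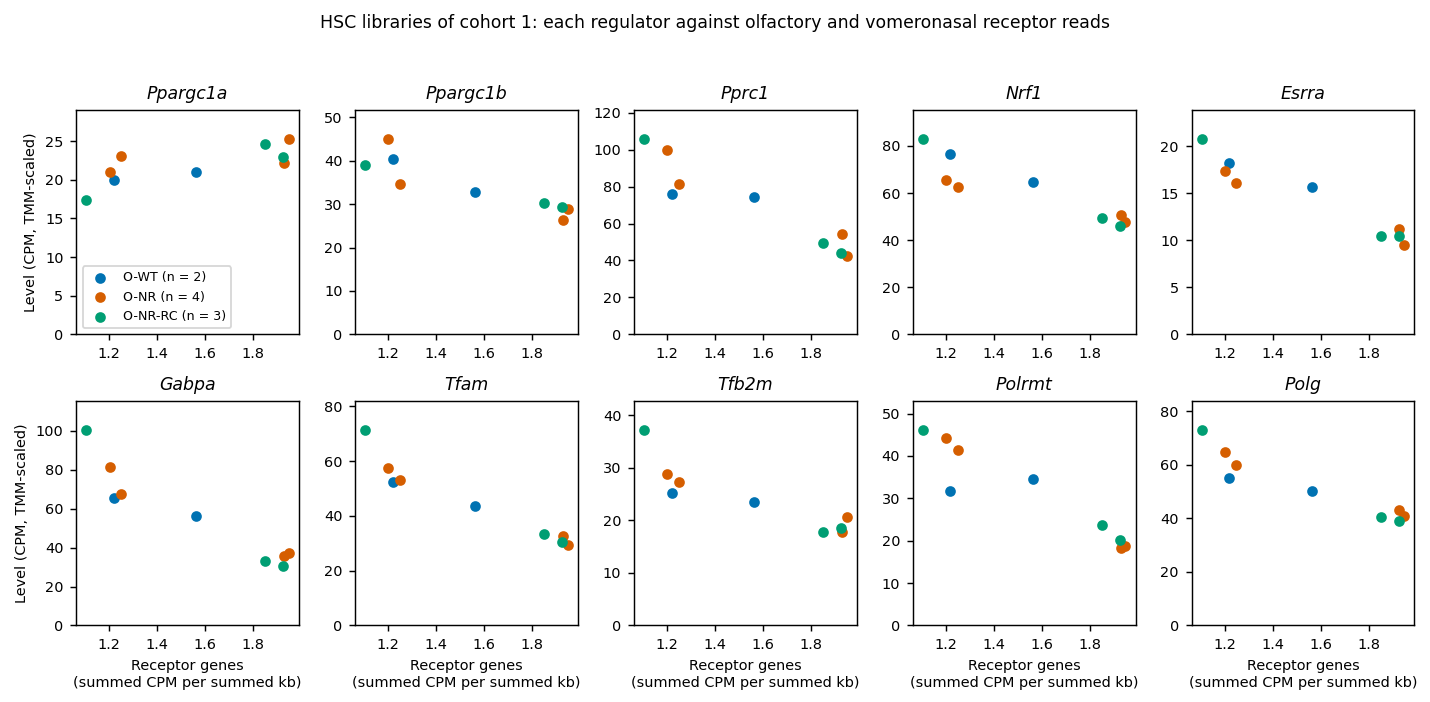
Level of each regulator in the 9 HSC libraries of cohort 1, in CPM on an axis from 0, against the olfactory and vomeronasal receptor reads of the library in CPM per kb. Each point is 1 library, coloured by group (O-WT n = 2, O-NR n = 4, O-NR-RC n = 3). The 4 libraries at 1.85 to 1.95 CPM per kb hold the lowest values of 9 regulators, Gabpa at 30.5 to 37.1 CPM among them, and not of Ppargc1a.

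Between cohorts, a difference in the effect of NR in HSCs was called for 0.228% of 31596 genes, and 603 had an unadjusted p below 0.05. Of the 10, 0 passed either threshold and 0 were called with DESeq2. With a replicate block in edgeR's quasi-likelihood test 3 were called, Esrra (-0.88, adjusted p = 0.0479), Gabpa (-0.91, adjusted p = 0.018) and Polrmt (-0.91, adjusted p = 0.0156), among 5158 of the 31596 genes. In cohort 1 only O-NR replicates 1 and 2 share a number with an O-WT library. Both are among the 4 libraries of high receptor reads, and the part of those reads in these calls was not tested. Without the block the differences lay between -0.43 (Esrra) and 0.14 (Ppargc1a), with 95% intervals as wide as -1.14 to 0.61 (Gabpa). Ppargc1a made up 12.8% of the PGC-1 family per kilobase in O-WT HSCs of cohort 1 (11.97 and 13.7%, n = 2) and 7.46 ± 1.45% in cohort 2 (n = 4). Its density was 1.74 to 2.80 times that of the receptor genes in cohort 1. Cohort and receptor reads moved together, and their parts cannot be told apart.

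For the 3 regulators with the largest range between O-WT cell types, the genes whose log2 CPM ran most like theirs over the 24 libraries of cohort 2 were picked out of 22572. For Polg these were Scp2 (0.983), Cdk5rap3 (0.978) and Os9 (0.978) (Pearson r in parentheses, a description over libraries that share cell type and depth). For Esrra they were Tada2a (0.927), Mrpl22 (0.921) and Srp54a (0.920). For Ppargc1a they were Dll4 (0.916), Bco2 (0.915) and Fap (0.908), genes known from vessels, carotenoid cleavage and fibroblasts.

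Exons of 4 regulators overlap a gene on the other strand, Polg with Fanci (921 bases, 8.57% of its exons), Gabpa with Atp5j (397 bases, 6.98%), Pprc1 with Ldb1 (177 bases, 2.82%) and Esrra with Trmt112 (73 bases, 1.66%). The strand setting of the counting was not stated, so reads there may belong to either gene.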

How the data were processed

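Per the labels and the study's methods, RNA from sorted cells was made into stranded total RNA libraries, and the authors trimmed reads with Trim Galore and cutadapt, used STAR to align them to mm10, and ran featureCounts at the gene level with a Gencode annotation (the versions of STAR and featureCounts and the strand setting are not given in the sources used here). The deposited values are whole-number counts per gene and library, not normalized, and every result was computed from them. The 10 genes, the pathway and marker lists and the comparisons were chosen with earlier results of these data known.

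Counts were scaled with TMM on total library sizes within each cohort and tested with edgeR 4.0.16 (quasi-likelihood, R 4.3.3, limma 3.58.1), after keeping genes above 3 CPM in at least 4 libraries in cohort 2 and 2 in cohort 1. NR was tested within each cell type, cell types within O-WT and within O-NR, cohort 1 over its 9 libraries, and interactions over 24 or over the HSC libraries of both cohorts. Cell type differences were called at a Benjamini-Hochberg adjusted p below 0.05, and NR, O-NR-RC and interaction differences at an unadjusted p below 0.01. Levels per kilobase used exon lengths and positions of Gencode M21 (GRCm38/mm10). Because levels were scaled separately in each cohort, they are compared within a cohort. Every gene of the 10 was named. Values of each library were printed for those with an adjusted p below 0.05 in an O-WT cell type comparison or an unadjusted p below 0.05 in an NR or O-NR-RC comparison, and from each pathway list up to 2 genes per comparison with the smallest p. Alternatives were RLE and upper quartile scaling, a filter at 1 CPM or none, DESeq2 1.42.0, a replicate block, all 24 libraries in 1 fit and leaving out each library, and, chosen after seeing the data, the receptor reads as a term or the 4 libraries of high receptor reads left out. The scripts were tested on simulated data. All pairs of libraries within a group differed by more than sampling noise, but unevenly. In cohort 1 the chi-square per degree of freedom was 1.96 for O-NR replicates 1 and 2, the most alike of all pairs. It was 3.84 for O-NR replicates 3 and 4 and 4.02 for O-NR-RC replicates 2 and 3. The other pairs within these 2 groups lay at 53.1 to 101.5.

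Replicate numbers are shared between groups, but nothing in the labels ties them to a mouse. Deviations of O-NR and O-WT libraries with the same number had mean correlations of 0.02 to 0.136 across genes per cell type. In HSCs such single pairs ranged over -0.276 to 0.603, and pairs of different numbers over -0.566 to 0.434. Since same-numbered pairs held both signs, these comparisons were not treated as paired. Every same-numbered pair of O-WT HSC and CLP libraries correlated at 0.122 to 0.367, but such pairs of different numbers ranged over -0.533 to 0.596. Same-numbered O-WT HSC and GMP pairs lay at -0.476 to -0.009, and O-NR HSC and CLP pairs at a mean of -0.1. The numbers were therefore not taken to mark shared mice. With the replicate block Nrf1 and Polrmt kept their calls in CLPs against HSCs of O-WT.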

Additional observations from a re-analysis of the deposited data

Results flagged for a closer look

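In each group of 4 libraries, a library was singled out when its gap to the nearest other library, as a share of the group's range, exceeded Dixon's 95% critical value for 4 values. This held for 4 of the 70 gene and group sets checked, and chance gives about 1 in 20. Ppargc1a in CLP O-NR replicate 2 stood at 3.06 CPM against 9.41 to 10.01 CPM in the other 3, with a gap of 0.914 of the range. Ppargc1b in CLP O-WT replicate 1 stood at 13.1 CPM against 19.3 to 20.4 CPM (gap 0.849). Nrf1 in GMP O-NR replicate 3 stood at 57.9 CPM against 65.9 to 67.0 CPM (gap 0.879). Polrmt in GMP O-NR replicate 2 stood at 40.2 CPM against 33.9 to 34.1 CPM (gap 0.964). The 4 values lay in 4 different libraries.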

How the results depend on the processing

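Over all comparisons, 71 of 114 counts of genes stayed within 1.5 times the main count under the alternatives and 101 of 114 counts of regulators did. Of 210 O-WT cell type fold changes of the 10 regulators under the alternatives, 174 kept their direction and their call, 16 lost the call and 6 gained it. The other 14 changed sign. Of the 59 NR and O-NR-RC fold changes of single regulators, 35 had a sign change under some alternative, and 1 of the values with a changed sign passed the threshold, Gabpa for O-NR-RC against O-WT without the 4 libraries of high receptor reads. Of the 30 O-NR cell type fold changes, 8 had a sign change, and 1 such value was called, Nrf1 in GMPs against CLPs with upper quartile scaling. The cause of these shifts was not tested. With upper quartile scaling, genes called numbered 203 (NR in HSCs), 4 (O-NR against O-WT in cohort 1) and 3 (O-NR-RC against O-WT), and the sign changed for Ppargc1b at 0.11 (CLPs against HSCs in O-WT), Gabpa at 0.20 (CLPs against HSCs in O-WT), Ppargc1b at -0.024 (GMPs against HSCs in O-WT), Tfam at -0.13 (GMPs against HSCs in O-WT), Ppargc1b at -0.14 (GMPs against CLPs in O-WT), Nrf1 at -0.25 (GMPs against CLPs in O-WT), Tfam at -0.13 (GMPs against CLPs in O-WT) and Tfb2m at -0.11 (GMPs against CLPs in O-WT). With no CPM filter, genes called numbered 235 (NR in HSCs), 328 (NR in CLPs), 347 (NR in GMPs), 80 (O-NR against O-WT in cohort 1), 58 (O-NR-RC against O-NR), 102 (O-NR-RC against O-WT), 523 (interaction of CLPs minus HSCs), 195 (interaction of GMPs minus HSCs), 427 (interaction of GMPs minus CLPs) and 233 (interaction of cohort 1 minus cohort 2 HSCs), and regulators called numbered 0 (NR in GMPs), 0 (CLPs against HSCs in O-WT) and 2 (CLPs against HSCs in O-NR), and the sign changed for Tfb2m at 0.15 (GMPs against HSCs in O-WT). With the replicate block, genes called numbered 247 (NR in HSCs), 185 (NR in CLPs) and 5158 (interaction of cohort 1 minus cohort 2 HSCs), and regulators called numbered 3 (interaction of cohort 1 minus cohort 2 HSCs). The 3 regulators called under that block were Esrra (-0.88), Gabpa (-0.91) and Polrmt (-0.91). Cohort 1 holds 2 pairs of O-NR and O-WT numbers, and both O-NR libraries of these pairs had high receptor reads. The cohort 1 comparisons themselves gave 0 regulators. The replicate block changed no other call of a regulator. With all 24 libraries in 1 fit, genes called numbered 268 (NR in CLPs) and 25 (NR in GMPs), and regulators called numbered 1 (NR in CLPs), 0 (NR in GMPs), 1 (CLPs against HSCs in O-WT) and 1 (CLPs against HSCs in O-NR), and the sign changed for Ppargc1a at 0.024 (NR in HSCs). With the receptor reads as a term, genes called numbered 392 (NR in HSCs), 317 (NR in CLPs), 446 (O-NR against O-WT in cohort 1), 436 (O-NR-RC against O-NR) and 409 (O-NR-RC against O-WT), and the sign changed for Ppargc1a at -0.0023 (O-NR-RC against O-WT). With the filter at 1 CPM, genes called numbered 136 (NR in CLPs), 56 (O-NR against O-WT in cohort 1), 36 (O-NR-RC against O-NR), 79 (O-NR-RC against O-WT), 215 (interaction of CLPs minus HSCs), 80 (interaction of GMPs minus HSCs), 205 (interaction of GMPs minus CLPs) and 147 (interaction of cohort 1 minus cohort 2 HSCs), and regulators called numbered 1 (CLPs against HSCs in O-WT) and 2 (CLPs against HSCs in O-NR), and the sign changed for Pprc1 at -0.0089 (CLPs against HSCs in O-WT). With RLE scaling, genes called numbered 34 (O-NR against O-WT in cohort 1) and 71 (O-NR-RC against O-WT), and regulators called numbered 0 (CLPs against HSCs in O-WT), and the sign changed for Gabpa at 0.041 (CLPs against HSCs in O-WT) and Tfb2m at 0.095 (GMPs against HSCs in O-WT). With DESeq2, genes called numbered 64 (O-NR against O-WT in cohort 1), 26 (O-NR-RC against O-NR), 106 (O-NR-RC against O-WT), 143 (interaction of CLPs minus HSCs), 64 (interaction of GMPs minus HSCs), 142 (interaction of GMPs minus CLPs) and 183 (interaction of cohort 1 minus cohort 2 HSCs), and regulators called numbered 0 (CLPs against HSCs in O-WT), and the sign changed for Gabpa at 0.041 (CLPs against HSCs in O-WT) and Tfb2m at 0.095 (GMPs against HSCs in O-WT). Without the 4 libraries of high receptor reads, genes called numbered 491 (O-NR against O-WT in cohort 1), 988 (O-NR-RC against O-NR) and 2709 (O-NR-RC against O-WT), and regulators called numbered 1 (O-NR-RC against O-WT), and the sign changed for Ppargc1a at -0.38 (O-NR-RC against O-WT) and Gabpa at 0.58 (O-NR-RC against O-WT).

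Leaving out 1 library at a time, the genes called ranged over 82 to 155 (interaction of CLPs minus HSCs), 51 to 266 (interaction of GMPs minus CLPs), 18 to 115 (interaction of GMPs minus HSCs), 12 to 264 (interaction of cohort 1 minus cohort 2 HSCs), 43 to 149 (NR in CLPs), 62 to 292 (NR in GMPs), 4 to 46 (O-NR against O-WT in cohort 1), 66 to 244 (NR in HSCs), 7 to 135 (O-NR-RC against O-NR) and 5 to 484 (O-NR-RC against O-WT). The regulators called ranged over 2 to 4 (CLPs against HSCs in O-NR), 0 to 2 (CLPs against HSCs in O-WT), 0 to 1 (interaction of GMPs minus CLPs), 0 to 1 (NR in CLPs) and 0 to 1 (NR in GMPs). The ranges of log2 fold changes held both signs for 39 of 59 NR and O-NR-RC values, 3 of 30 O-WT and 3 of 30 O-NR cell type values and 18 of 40 interactions, among them Gabpa -0.12 to 0.12 (CLPs against HSCs in O-WT), Gabpa -0.95 to 0.12 (O-NR-RC against O-WT), Ppargc1a -0.28 to 0.091 (NR in HSCs), Ppargc1a -0.18 to 0.061 (O-NR-RC against O-NR), Ppargc1a -0.022 to 0.22 (O-NR-RC against O-WT), Ppargc1b -0.20 to 0.011 (CLPs against HSCs in O-WT) and Tfb2m -0.11 to 0.0398 (GMPs against HSCs in O-WT). For NR in HSCs, genes called were 244 without HSC O-WT 1, 86 without HSC O-WT 3, 232 without HSC O-NR 2, 66 without HSC O-NR 3 and 85 without HSC O-NR 4 (all libraries 135). For NR in CLPs, genes called were 43 without CLP O-WT 2, 140 without CLP O-WT 4 and 149 without CLP O-NR 3 (all libraries 82). For NR in GMPs, genes called were 248 without GMP O-WT 4, 85 without GMP O-NR 1, 62 without GMP O-NR 3 and 292 without GMP O-NR 4 (all libraries 133). For O-NR against O-WT in cohort 1, genes called were 7 without O-WT 1, 36 without O-WT 2, 4 without O-NR 1, 7 without O-NR 2, 29 without O-NR 4 and 46 without O-NR-RC 1 (all libraries 16). For O-NR-RC against O-WT, genes called were 10 without O-WT 1, 16 without O-NR 2, 484 without O-NR-RC 1, 6 without O-NR-RC 2 and 5 without O-NR-RC 3 (all libraries 26). For O-NR-RC against O-NR, genes called were 7 without O-NR 3 and 135 without O-NR-RC 1 (all libraries 12). For interaction of GMPs minus HSCs, genes called were 80 without HSC O-WT 1, 90 without HSC O-NR 2, 18 without GMP O-WT 3, 115 without GMP O-WT 4 and 21 without GMP O-NR 3 (all libraries 33). For interaction of GMPs minus CLPs, genes called were 157 without CLP O-WT 1, 60 without CLP O-WT 3, 213 without CLP O-WT 4, 165 without CLP O-NR 1, 150 without CLP O-NR 4, 51 without GMP O-WT 2, 266 without GMP O-WT 4 and 53 without GMP O-NR 3 (all libraries 91). For interaction of CLPs minus HSCs, genes called were 155 without CLP O-NR 1 (all libraries 91). For interaction of cohort 1 minus cohort 2 HSCs, genes called were 12 without HSC O-WT (cohort 1) 1, 31 without HSC O-NR (cohort 1) 1, 29 without HSC O-NR (cohort 1) 2, 123 without HSC O-NR (cohort 1) 4, 176 without HSC O-WT 1 and 264 without HSC O-NR 2 (all libraries 72). For NR in CLPs, regulators called were 1 without CLP O-WT 1 (all libraries 0). For NR in GMPs, regulators called were 0 without GMP O-NR 2 and 0 without GMP O-NR 3 (all libraries 1). For CLPs against HSCs in O-WT, regulators called were 1 without HSC O-WT 1, 1 without HSC O-WT 3, 0 without HSC O-WT 4, 1 without CLP O-WT 1, 0 without CLP O-WT 2, 1 without CLP O-WT 3, 1 without GMP O-WT 1, 1 without GMP O-WT 2, 1 without GMP O-WT 3 and 1 without GMP O-WT 4 (all libraries 2). For CLPs against HSCs in O-NR, regulators called were 2 without HSC O-NR 1, 2 without HSC O-NR 4, 2 without CLP O-NR 4 and 2 without GMP O-NR 3 (all libraries 4). For interaction of GMPs minus CLPs, regulators called were 1 without CLP O-WT 1 (all libraries 0). The regulator called in GMPs minus CLPs without CLP O-WT 1 was Esrra (-0.89). A library's number stands for its replicate, in the cohort of the comparison, and where both cohorts enter, in cohort 2 unless cohort 1 is named. With 2 O-WT libraries in cohort 1, the library left is assumed to vary like the other groups. In fits of cohort 2 alone, leaving out a library also meant that the filter on low counts asked for fewer libraries.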
